A study of Mus musculus with 8 samples.

Results

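Latent TGFβ is held and released by a small set of proteins, and the RNA of 10 genes that encode them was followed here in microglia that lack *Smad2* and *Smad3*. The genes were chosen by name for these roles, with earlier results of these data known, and they are 10 of the 55573 genes counted. They comprise the cell-surface anchors *Nrros* (also known as *Lrrc33*) and *Lrrc32* (GARP), the latent TGFβ binding proteins *Ltbp1*, *Ltbp3* and *Ltbp4*, the integrin αv chain *Itgav*, the integrin β chains *Itgb8*, *Itgb5* and *Itgb1*, and the matrix protein thrombospondin 1, *Thbs1*. Microglia were sorted from the brains of 4 mutant mice (labelled SmadKO) and 4 littermate controls (labelled WT) at postnatal day 60, with 1 library per mouse. The Methods give the mutant genotype as *Smad2/3* fl/fl;*Cx3cr1* Cre, on a C57BL6/J background. Cre expressed from the *Cx3cr1* locus acts in microglia and in related macrophages. The labels call the controls wild-type, whereas the Methods state that controls generally carried Cre and a floxed allele. No treatment is named for either group.

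TGFβ is made as a precursor that furin cleaves, and the cleaved propeptide stays wrapped around the growth factor and keeps it latent. The latent complex is tethered either to the cell surface, by NRROS or GARP, or to the extracellular matrix, by the latent TGFβ binding proteins. Integrins that pair the αv chain with a β chain bind the propeptide and release or expose the growth factor, and thrombospondin 1 can also activate the complex. In the brain NRROS is the anchor of microglia and macrophages, GARP is known from regulatory T cells, platelets and endothelium, and the β8 chain is known from glial and progenitor cells that present TGFβ to microglia. SMAD2 and SMAD3 carry the signal from the receptors to the nucleus.

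The promoter windows of *Nrros*, *Itgb8* and *Itgb5* are shown because these are the main anchor, the β chain that was higher in 3 of 4 mutants than in every control, and the 1 member called different between the groups. Each runs from 250 bases before to 50 bases after the transcription start in RefSeq (GRCm38.p6), 5′ to 3′ on the gene's strand. Capitals mark the SMAD-binding core CAGAC, which reads GTCTG on the other strand, and windows were also searched for the core GAGGAA of the myeloid factor PU.1, which reads TTCCTC on the other strand. The windows lie at chr16:32165545-32165844 on the minus strand for *Nrros*, chr12:119238227-119238526 on the minus strand for *Itgb8*, and chr16:33829415-33829714 on the plus strand for *Itgb5*. In the GENCODE M21 annotation *Itgb8* starts at 119238802, so its whole window lies inside that gene, downstream of the GENCODE start.
Nrros: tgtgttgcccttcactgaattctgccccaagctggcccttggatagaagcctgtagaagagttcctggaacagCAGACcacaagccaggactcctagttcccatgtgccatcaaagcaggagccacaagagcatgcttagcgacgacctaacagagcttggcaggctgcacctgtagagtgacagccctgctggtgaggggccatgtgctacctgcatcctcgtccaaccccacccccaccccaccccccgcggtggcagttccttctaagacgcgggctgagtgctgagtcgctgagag
Itgb8: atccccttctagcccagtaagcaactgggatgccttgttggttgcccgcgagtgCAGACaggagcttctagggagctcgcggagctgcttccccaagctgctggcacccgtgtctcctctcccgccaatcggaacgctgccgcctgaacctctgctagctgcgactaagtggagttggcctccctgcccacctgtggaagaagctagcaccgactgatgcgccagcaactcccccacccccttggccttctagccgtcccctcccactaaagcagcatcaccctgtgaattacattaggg
Itgb5: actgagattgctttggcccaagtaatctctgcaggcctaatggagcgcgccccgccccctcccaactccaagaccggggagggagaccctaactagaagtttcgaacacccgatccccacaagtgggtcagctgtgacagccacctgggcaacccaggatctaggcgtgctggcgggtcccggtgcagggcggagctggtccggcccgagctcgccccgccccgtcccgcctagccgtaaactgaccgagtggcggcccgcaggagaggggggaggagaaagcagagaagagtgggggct
*Nrros* and *Itgb8* held 1 CAGAC each, starting at positions -177 and -196 from the start site, and no GAGGAA. *Itgb5* held neither motif. Of the 32851 promoter windows in the RefSeq table, 49.6% held CAGAC and 28.3% held GAGGAA. Windows were found for 8 of the 10 members, with 11 windows in all, of which 6 held CAGAC and 3 held GAGGAA. A match of so few letters is a description of the sequence and not a binding site.

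Libraries held between 35639502 and 41946479 counts on genes. *Smad3* fell by 1.33 on the log2 scale in mutants (standard error 0.36, adjusted p = 0.0429, edgeR's quasi-likelihood test), from 48.7 ± 7.13 to 19.3 ± 11.0 CPM (counts scaled to library size after TMM normalisation, mean ± SD, n = 4 each), while the log2 fold change of *Smad2* was -0.34 (adjusted p = 0.340). *Smad3* was highest in mutant 3 (35.1 CPM) among the mutants, whose other values spanned 9.61 to 17.5 CPM, and the *Smad3* call was kept without mutant 3 and lost without any other single mouse (adjusted p 0.00432 without mutant 3 and up to 0.110 without another mouse). It was also lost with no filter on low counts (0.0510) and with the vascular marker score as a covariate (0.107). That score, the mean log2 CPM of endothelial, mural and fibroblast markers, includes *Pdgfrb*, which was itself called lower in mutants. The counts cover whole genes, including exons that Cre leaves in place. *Xist* lay between 99.5 and 183 CPM in the controls and reached at most 0.562 CPM in any mutant, and the Y-linked *Ddx3y* was at least 9.74 CPM in mutants and at most 0.224 CPM in controls, so sex-linked expression and genotype cannot be told apart in any result. Of 8 microglia markers, 7 were called lower in mutants, with a summed level of 5333 to 7486 CPM against 27522 to 41510 CPM in controls. Of 6 markers of border-associated macrophages, the macrophages of the meninges and perivascular spaces, 5 were called higher (1599 to 2485 against 29.5 to 42.5 CPM summed). Of 7 lymphocyte markers 3 were called higher (73.9 to 160 against 26.0 to 62.6 CPM summed), and of 4 tested mural markers 1, *Pdgfrb*, was called lower. None of the tested monocyte, neutrophil, neuron, oligodendrocyte, fibroblast or choroid plexus markers was called. The summed ependymal and choroid plexus markers, mostly *Ttr*, still did not overlap between groups. They lay between 25026 and 41777 CPM in mutants and between 7185 and 24754 CPM in controls. In such bulk samples fewer cells of a type and less RNA per cell cannot be told apart.

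Over the whole table, 12.3% of the 20153 genes tested were called at an adjusted p under 0.05, with 4.36% higher and 7.97% lower in mutants. Of the 10 members, 8 passed the filter of at least 10 counts in at least 4 libraries. *Itgb5* was the 1 member called, and it was lower in mutants. No member was called higher by edgeR's quasi-likelihood test, although 2 (*Itgb8* and *Thbs1*) had an unadjusted p under 0.05 in that direction, and DESeq2 called 1, *Itgb8*. The other 7 tested members had no call, and *Lrrc32* and *Ltbp1* were too low to test. The median log2 fold change of the 8 tested members was -0.04, beside 0.01 over all genes tested. All 4 mutants lay below all 4 controls for *Itgb5* and above them for *Itgav*, and the groups overlapped for the other 6; over all genes tested the groups did not overlap for 22.1%.

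**Figure D1:**
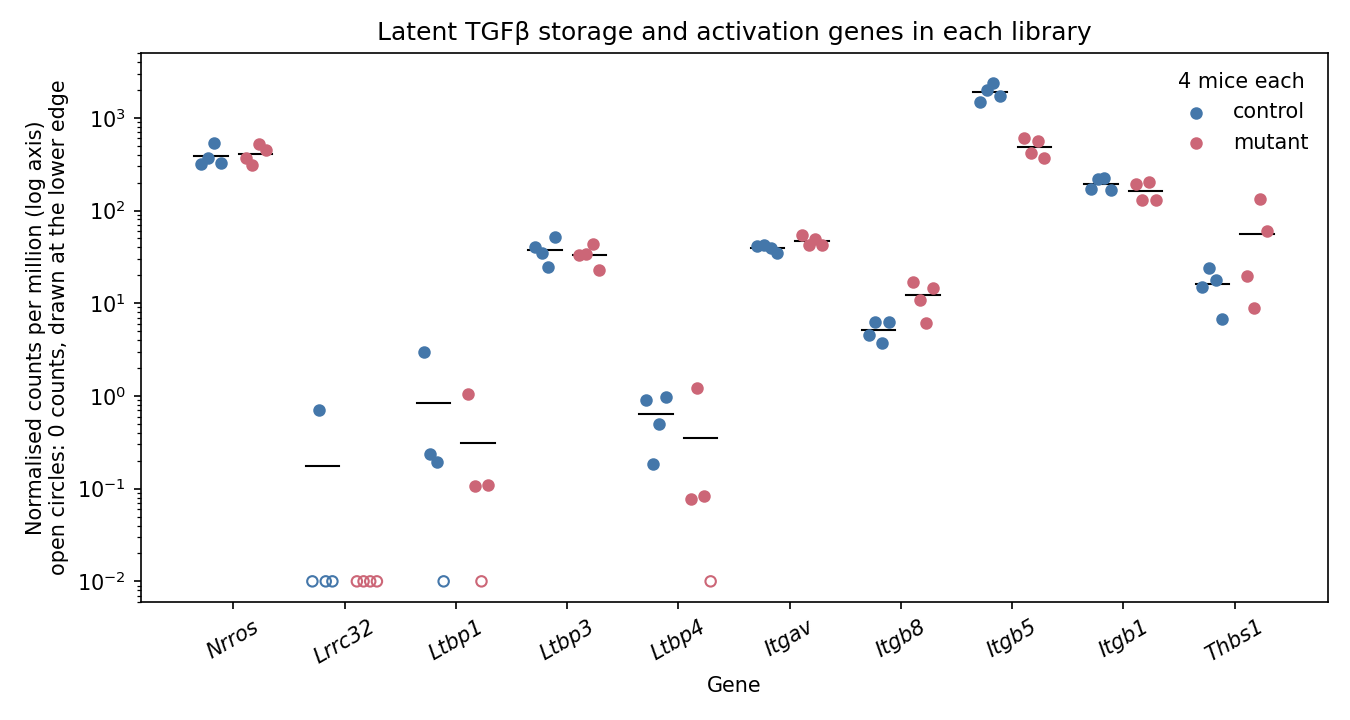
Normalised counts (CPM, log axis) of the 10 members in each library, with controls in blue, mutants in red and group means as black lines; open circles at the lower edge are libraries with 0 counts. *Itgb5* separates the groups downward (365 to 611 CPM in mutants, 1474 to 2393 CPM in controls), whereas *Nrros*, *Ltbp3* and *Itgb1* overlap.

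*Nrros*, the anchor that holds latent TGFβ on microglia, was expressed at a similar range of levels in both groups. It was at 320, 370, 535 and 324 CPM in controls 1 to 4 and at 371, 309, 520 and 448 CPM in mutants 1 to 4. The highest value was in a control and the lowest in a mutant, so the groups overlapped throughout. The log2 fold change was 0.09 (standard error 0.23, 95% interval -0.42 to 0.60, adjusted p = 0.847) and did not pass the test. *Nrros* (ENSMUSG00000052384) lies on chromosome 16 from 32142785 to 32165594, minus strand, in GRCm38 (GENCODE M21), and counts were summed over its exons.

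*Lrrc32*, the anchor of regulatory T cells and platelets, was close to absent. Control 2 held 27 counts (0.703 CPM), and the other 7 libraries held 0, which allows up to 0.0648 to 0.0839 CPM per library at 3 counts. As a level per length (RPKM, the CPM per kilobase of exon), *Nrros* made up 99.8% to 100% of the summed *Nrros* and *Lrrc32* level in each control and 100% in each mutant. *Lrrc32* (ENSMUSG00000090958) lies on chromosome 7 from 98489283 to 98502181, plus strand.

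The matrix tethers were represented by *Ltbp3*. It measured 40.6, 34.4, 24.4 and 51.6 CPM in controls and 32.9, 34.3, 43.8 and 23.1 CPM in mutants, with overlapping groups. The log2 fold change was -0.17 (standard error 0.27, 95% interval -0.77 to 0.43, adjusted p = 0.730). *Ltbp3* lies on chromosome 19 from 5740904 to 5758532, plus strand. *Ltbp4*, a binding protein of elastic fibres, was at 0.905, 0.182, 0.504 and 0.968 CPM in controls and at 0.0779, 1.23, 0.0836 and 0 CPM in mutants. Mutant 2 stood above every control while the other mutants stood below every control, and the log2 fold change of -0.86 had a standard error of 1.25 (adjusted p = 0.710). *Ltbp1*, the most widely expressed of the family in matrix-producing cells, was at 2.95, 0.234, 0.196 and 0 CPM in controls and 1.04, 0.108, 0 and 0.110 CPM in mutants. The number 1 library of each group held most of the *Ltbp1* counts, 114 and 40. Control 1 and mutant 1 also had the highest mean log2 CPM of neuron and glia markers in their groups (5.60 and 5.52), with mutant 2 at 5.10. The part of neural RNA in the *Ltbp1* values was not tested. Per length, *Ltbp3* accounted for 96.0% ± 3.15 of the summed level of the 3 genes in controls and 97.8% ± 2.28 in mutants (SD, n = 4 each). *Ltbp1* lies on chromosome 17 from 75005568 to 75392512, plus strand, and *Ltbp4* on chromosome 7 from 27305136 to 27337692, minus strand.

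The integrin chains moved unequally. *Itgav*, the αv chain that pairs with each of the β chains followed here, was at 41.7, 42.3, 39.8 and 34.8 CPM in controls and 54.3, 42.8, 48.8 and 42.4 CPM in mutants. All 4 mutants were above all 4 controls, but mutant 4 stood next to control 2, and the estimate of 0.25 on the log2 scale (95% interval -0.09 to 0.58, adjusted p = 0.316) did not pass the test. *Itgav* lies on chromosome 2 from 83724397 to 83806916, plus strand, and 5.9% of its exon bases overlap *Gm13684* on the opposite strand, whose reads cannot be told apart in unstranded counts.

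*Itgb5*, the β chain of the vitronectin receptor αvβ5 and a gene of the homeostatic microglial programme, was the highest of the members per length in controls, at 534 ± 111 RPKM. Its counts were 1474, 1991, 2393 and 1728 CPM in controls and 611, 418, 562 and 365 CPM in mutants. The highest mutant was below the lowest control, so the groups were fully separate. It fell by 1.96 on the log2 scale, a 3.88-fold difference (standard error 0.23, 95% interval -2.47 to -1.44, adjusted p = 8.86e-04). The call was kept in all 16 alternative fits, with log2 fold changes from -2.08 to -1.80. *Itgb5* (ENSMUSG00000022817) lies on chromosome 16 from 33829665 to 33949338, plus strand, and 7.25% of its 50-base words also occur in *Gm38317*, so reads of these 2 genes may be split between them. *Gm38317* was also the gene whose profile over the 8 libraries was nearest to that of *Itgb5* (root of summed squared differences in centred log2 CPM, 0.18), followed by *Cyfip1* (0.28) and *Gcnt1* (0.35), among 10345 genes.

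*Itgb8*, the β chain that with αv presents active TGFβ, was at 4.55, 6.22, 3.75 and 6.24 CPM in controls and 17.1, 10.8, 6.13 and 14.5 CPM in mutants. Mutants 1, 2 and 4 were above every control, and mutant 3 was inside the control range. The log2 fold change was 1.22 (standard error 0.35, 95% interval 0.42 to 2.02), and its adjusted p of 0.0540 in edgeR's test missed the threshold. *Itgb8* was called without mutant 3 (log2 fold change 1.44, adjusted p = 0.0215). DESeq2 (adjusted p = 0.0071) and the filter of 10 counts in all 8 libraries (0.0401) also called it, and its adjusted p was 0.137 without control 3. *Itgb8* is also made by glia: the summed markers of oligodendrocyte precursors lay between 18.0 and 75.1 CPM in control libraries and between 27.2 and 83.3 CPM in mutant libraries, and those of astrocytes between 1449 and 2469 and between 371 and 1339 CPM. Of 4 precursor markers 0 were called, and of 7 astrocyte markers 1, *Slc1a3*, was called lower. *Slc1a3* went from a mean of 1349 to 78.9 CPM and made up most of the fall in the astrocyte sum. The means of *Aqp4*, *Gfap*, *Aldh1l1* and *Slc1a2* were higher in mutants and those of *Gja1* and *Aldoc* lower, all without a call. With a score of neural markers, *Slc1a3* among them, as a covariate the log2 fold change of *Itgb8* was 1.14 (adjusted p = 0.0916). *Itgb8* (ENSMUSG00000025321) lies on chromosome 12 from 119158022 to 119238802, minus strand.

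*Itgb1*, the β chain shared by many collagen, laminin and fibronectin receptors, was at 172, 216, 222 and 166 CPM in controls and 192, 130, 204 and 129 CPM in mutants. Mutants 2 and 4 were below every control and mutants 1 and 3 inside their range, and the log2 fold change was -0.24 (95% interval -0.70 to 0.21, adjusted p = 0.480). *Itgb1* lies on chromosome 8 from 128685654 to 128733200, plus strand.

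Set against the αv chain per length, *Itgb5* was lower in every mutant than in every control, and *Itgb8* was higher in 3 of 4 mutants than in every control. The ratio of *Itgb5* to *Itgav* RPKM was 107, 142, 182 and 150 in controls and 34.0, 29.6, 34.9 and 26.0 in mutants. That of *Itgb8* to *Itgav* was 0.106, 0.143, 0.0915 and 0.174 in controls and 0.306, 0.245, 0.122 and 0.332 in mutants, where again mutant 3 was inside the control range. Among the summed level of the β chains that can pair with αv (*Itgb5*, *Itgb1*, *Itgb3*, *Itgb8* and *Itgb6*), *Itgb5* held 91.0% ± 0.802 in controls and 76.8% ± 1.24 in mutants, and *Itgb1* held 8.19% ± 0.804 and 22.4% ± 1.43 (SD, n = 4 each). The larger *Itgb1* share accompanied a lower *Itgb5* level, since *Itgb1* itself had no call. *Itgb8* held 0.0831% ± 0.0257 in controls and 0.644% ± 0.288 in mutants, so it was a minor β chain in both groups. These shares are a description, with no test.

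**Figure D2:**
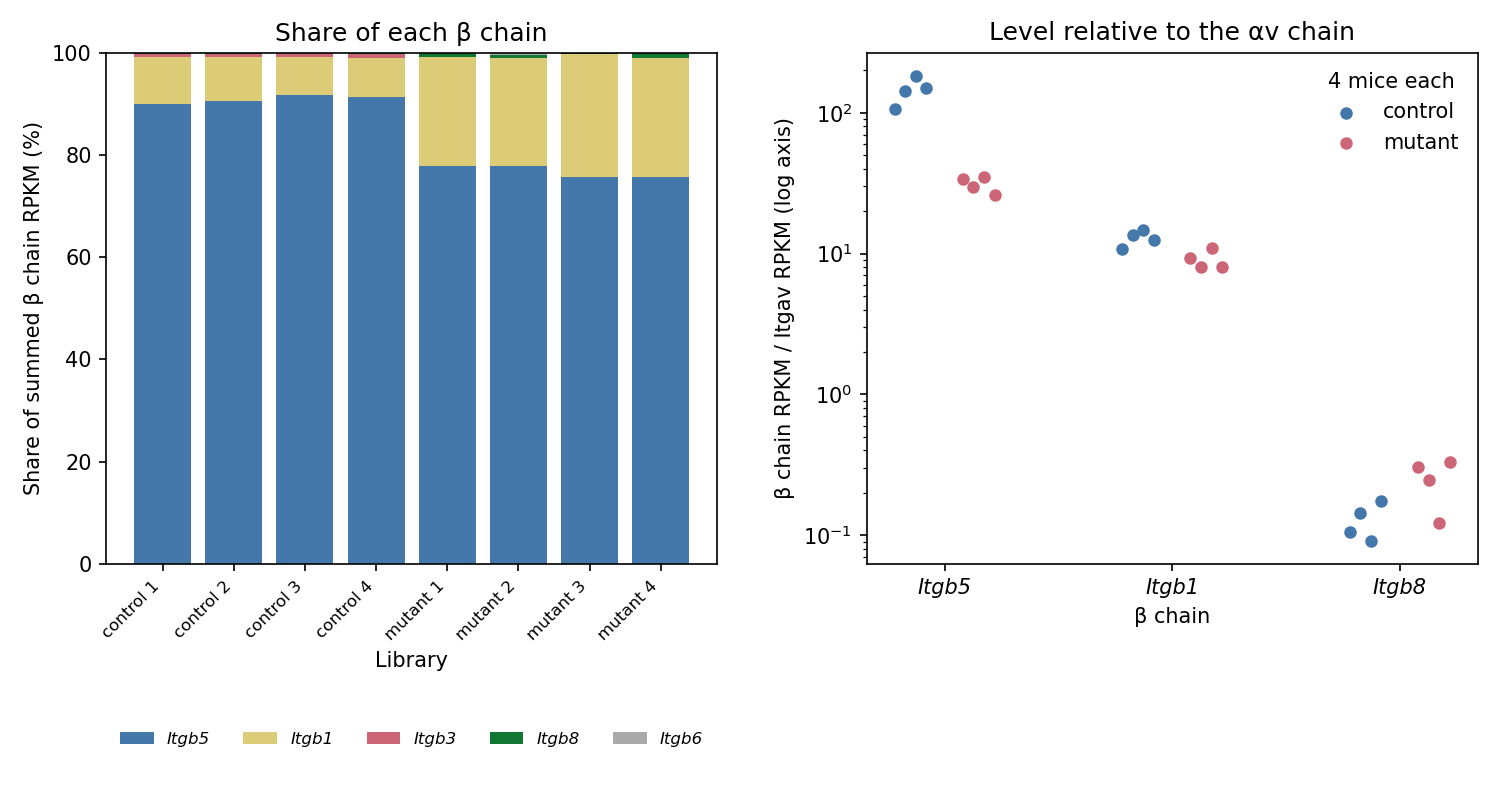
Left, share of each β chain in the summed RPKM of 5 β chains, 1 bar per library; right, RPKM of *Itgb5*, *Itgb1* and *Itgb8* divided by that of *Itgav* (log axis), 1 point per mouse. *Itgb5* fills 90.0% to 91.9% of each control bar and 75.7% to 77.9% of each mutant bar, and the *Itgb8* ratio of mutant 3 lies among the controls.

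*Thbs1*, which binds the latent complex in the matrix and is abundant in platelets, was uneven between mutants. It was at 15.1, 24.0, 17.8 and 6.80 CPM in controls and 19.6, 8.92, 133 and 60.1 CPM in mutants. Mutants 3 and 4 stood above every control, and mutants 1 and 2 were inside the control range. On the log2 scale the difference of 1.79 (standard error 0.76) did not pass the test (adjusted p = 0.155), and without mutant 3 it was 0.89 (adjusted p = 0.405). The platelet marker *Ppbp* was at 2.47, 1.34, 0 and 1.82 CPM in mutants 1 to 4, the platelet gene *Itga2b* was at 2.34, 6.20, 5.96 and 3.06 CPM, and *Gp9* was at 0.649, 3.95, 0 and 1.63 CPM. Neither *Ppbp* nor *Gp9* had a count in mutant 3, whereas *Itga2b* there was close to its highest mutant value. Haemoglobin RNA was high in mutant 4 (*Hbb-bs* 2107 CPM) and at 111 CPM in mutant 3, and the part of platelet and red cell RNA in the *Thbs1* values was not tested. *Thbs1* lies on chromosome 2 from 118111876 to 118127133, plus strand, and shares 3.42% of its exon bases with *Gm29233* on the opposite strand.

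**Figure D3:**
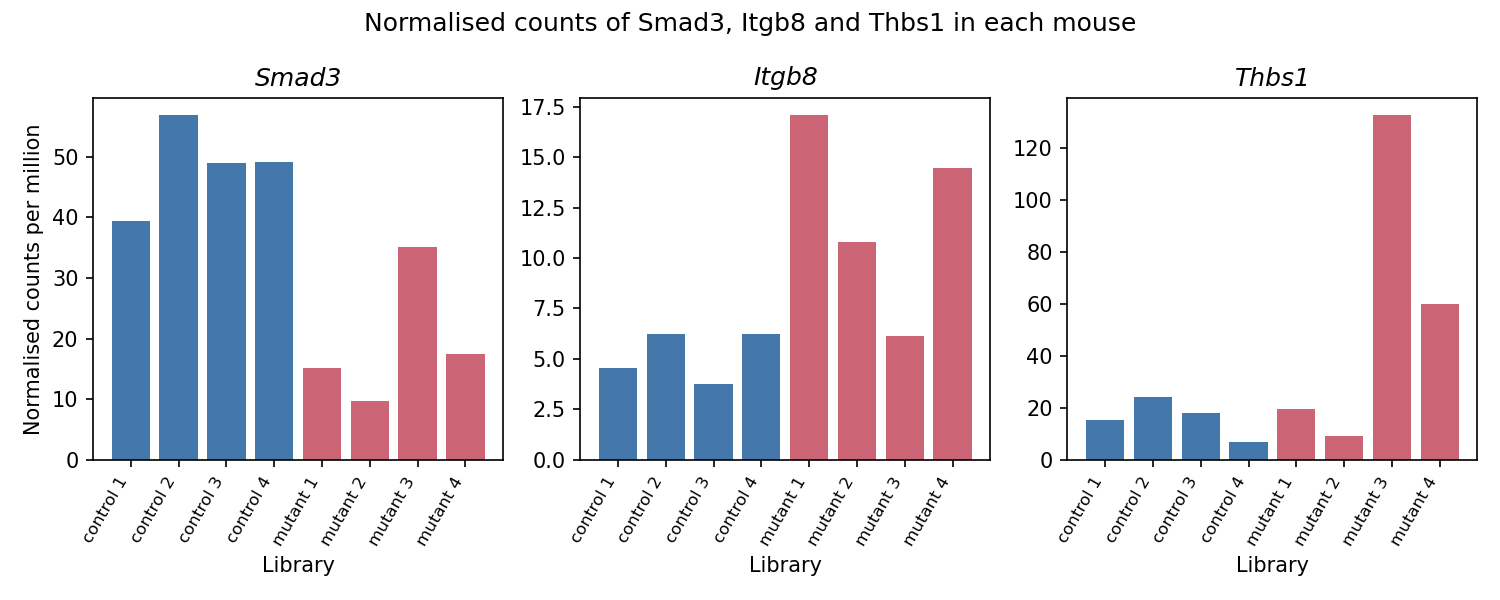
Normalised counts (CPM) of *Smad3*, *Itgb8* and *Thbs1* in each mouse, with controls in blue and mutants in red. Mutant 3 has the highest *Smad3* of the mutants (35.1 CPM), the lowest *Itgb8* (6.13 CPM) and the highest *Thbs1* (133 CPM). Mutant 2 has the lowest *Smad3* of the mutants (9.61 CPM) and the lowest *Thbs1* (8.92 CPM), with *Itgb8* at 10.8 CPM, below mutants 1 and 4. A relation between these genes was not tested.

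Ordered by level per length, controls read *Itgb5* (534 RPKM), *Nrros* (92.8), *Itgb1* (47.5), *Ltbp3* (4.16), *Itgav* (3.69), *Thbs1* (2.62), *Itgb8* (0.469), *Ltbp4* (0.0990), *Ltbp1* (0.0790) and *Lrrc32* (0.0375). The ranges of *Ltbp3*, *Itgav* and *Thbs1* overlapped with those of their neighbours, as did those of *Ltbp4*, *Ltbp1* and *Lrrc32*. The ranges of *Itgb5* and *Nrros* were separate in controls and overlapped in mutants, with *Itgb5* at 138 ± 32.7 RPKM (103 to 172) and *Nrros* at 98.6 ± 22.0 RPKM (73.9 to 125). *Itgb1* followed at 40.1 ± 9.77 RPKM, below every value of *Nrros*.

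The rest of the pathway was read from 24 further genes grouped by role, of which 21 could be tested. In mutants 1 was called higher and 6 lower, with a median log2 fold change of -0.67 over the 21. Over all genes tested, 4.36% were called higher and 7.97% lower, with a median of 0.01. The list was chosen with earlier results of these data known. Among ligands, *Tgfb3* rose from 0.853, 3.80, 0.643 and 2.10 CPM in controls to 16.7, 9.12, 22.3 and 6.21 CPM in mutants (log2 fold change 2.87, standard error 0.65, adjusted p = 0.0208), and 12.4% of its exon bases overlap other genes on the opposite strand. *Tgfb1*, the main ligand of brain macrophages, was at 88.3, 98.7, 125 and 131 CPM in controls and 52.8, 70.2, 90.8 and 64.7 CPM in mutants, and its log2 fold change of -0.67 missed the threshold (adjusted p = 0.0664). *Tgfb1* was called lower in 5 of 16 alternative fits, among them DESeq2 (adjusted p = 0.0213), the filter of 10 counts in all 8 libraries (0.0479), the neural score as a covariate (0.0476) and the fit without mutant 3 (0.0403). *Tgfb2* had no call (log2 fold change 0.85, adjusted p = 0.211); in the same libraries *Ttr*, the transthyretin RNA of choroid plexus, lay between 7081 and 24421 CPM in control mice and between 24722 and 41316 CPM in mutant mice, and its part in the *Tgfb2* values was not tested.

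The anchor can also be set against its cargo. The ratio of *Nrros* to *Tgfb1* RPKM was 4.38, 4.53, 5.18 and 2.99 in controls and 8.47, 5.31, 6.92 and 8.36 in mutants. All 4 mutant ratios were above all 4 control ratios, with mutant 2 next to control 3. The ratio was not tested, neither gene was called in the comparison above, and 22.1% of single genes separated the groups in this way.

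Of the other αv partners, *Itgb3* fell to almost nothing, from 18.7, 24.9, 28.7 and 28.1 CPM in controls to 0, 0.648, 0.139 and 0.0276 CPM in mutants (log2 fold change -6.85, standard error 0.94, adjusted p = 0.00178). *Itgb3*, the β chain of platelet and osteoclast receptors, thus changed in the same direction as *Itgb5*. The platelet marker *Gp9* also fell, from a mean of 53.8 CPM in controls to 1.56 CPM in mutants (log2 fold change -5.09, adjusted p = 0.0105 in edgeR's test). *Itga2b*, the platelet partner of *Itgb3*, was at 4.93 CPM in controls and 4.39 CPM in mutants (log2 fold change -0.17, adjusted p = 0.877). *Ppbp*, another platelet marker, was at 0.347 CPM in controls and 1.41 CPM in mutants (log2 fold change 2.01, adjusted p = 0.392 in edgeR's test). These platelet markers did not move together, and the part of platelet RNA in the *Itgb3* values was not tested. *Itgb6* had 0 to 3.74 CPM and no call.

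*Furin*, the convertase that cleaves the precursor, fell by 1.05 on the log2 scale (standard error 0.23, adjusted p = 0.0185), from 82.2 ± 20.1 to 39.8 ± 7.82 CPM (SD, n = 4 each). Its call was lost without control 2, control 3, mutant 2 or mutant 4 (adjusted p up to 0.0590), and with the vascular marker score as a covariate (0.0908). Among the 6 other activators tested, *Mmp2*, a gelatinase, fell by 2.05 (standard error 0.26, adjusted p = 0.00135), from 114 ± 39.0 to 27.4 ± 4.89 CPM, and *Plau*, *Mmp9*, *Mmp14*, *Thbs2* and *Tgm2* had no call. *Mmp14*, a membrane protease that cooperates with αvβ8, had a log2 fold change of 0.57 (adjusted p = 0.132) and was called higher only without control 3 (0.0394). *Plg* had 0 counts in all 8 libraries. Of the microfibril and binding proteins *Ltbp2*, *Fbn1*, *Fbn2* and *Emilin1*, 2 could be tested and 0 were called, with log2 fold changes of 1.11 for *Fbn1* (adjusted p = 0.203) and -1.63 for *Emilin1* (adjusted p = 0.136). Of these 2, 1 (*Emilin1*) had an unadjusted p under 0.05. The TGFβ-binding proteoglycans *Dcn* and *Bgn* had no call.

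Of 5 receptors, 3 were called lower, beside 7.97% of all genes tested. *Tgfbr1*, the type I receptor, went from 508 ± 45.9 to 129 ± 13.7 CPM (log2 fold change -1.97, standard error 0.15, adjusted p = 8.6e-05). *Tgfbr2*, the type II receptor, fell by 0.99 (standard error 0.26, adjusted p = 0.0381), and this call was kept only without control 1 or mutant 1 among the 8 fits that left out a mouse (adjusted p 0.0331 to 0.102). It was also lost with library totals (0.0542) and with the neural (0.0626) or vascular (0.126) score as a covariate. *Eng*, the coreceptor endoglin, fell by 2.93 (standard error 0.27, adjusted p = 2.15e-04). Endothelial markers, whose cells carry much endoglin, summed to 24.3 to 47.8 CPM in controls and 26.6 to 45.1 CPM in mutants, with 0 of the 5 tested called. In mutants most of this sum was *Ly6c1* (mean 16.6 CPM in controls, 16.3 CPM in mutants) and *Slco1a4* (9.10 and 13.4 CPM). *Pecam1* was at 9.48 CPM in controls and 2.42 CPM in mutants (adjusted p = 0.0664, edgeR's quasi-likelihood test). The other endothelial markers averaged at most 1.80 CPM in either group. The part of endothelial RNA in the *Eng* values was not tested. *Tgfbr3* and *Acvrl1* had no call.

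**Figure D4:**
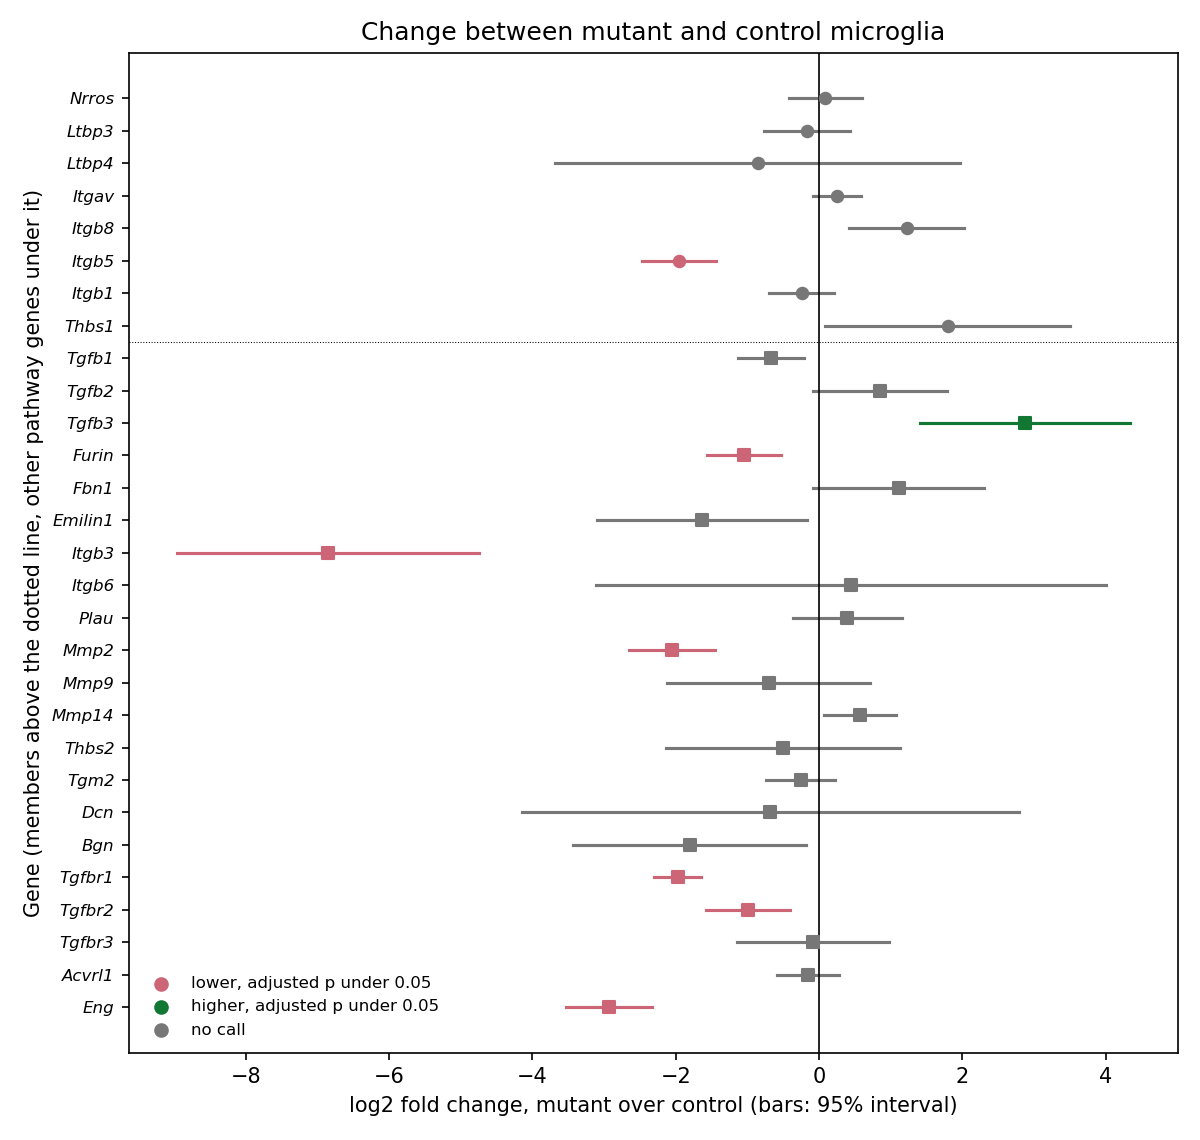
Log2 fold change of mutants over controls with its 95% interval for the 8 tested members (circles, above the dotted line) and the 21 tested pathway genes (squares), with red for called lower, green for called higher and grey for no call. *Itgb5* is the 1 red circle, while *Nrros*, *Ltbp3*, *Itgav* and *Itgb1* have intervals that include 0.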

How the data were processed

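The deposited values were raw counts of reads per gene, which the authors made with Rsubread and featureCounts on mm10. The annotation and the strand setting of the counting are not given in the sources used here. The labels (Nextera XT, single-end) and the Methods (NEBNext, paired-end) differ on the libraries, which both call unstranded. The authors' own DESeq2 comparison was deposited too and not used. The Methods name another deposit for these mutants.

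Of 55573 Ensembl identifiers, 55480 matched GENCODE M21. EdgeR 4.0.16 (R 4.3.3; quasi-likelihood test, TMM, at least 10 counts in at least 4 of 8 libraries, Benjamini-Hochberg) compared the groups without covariates, since the labels do not say what a shared number marks. Standard errors are the log2 fold change over the square root of F, and intervals use the test's degrees of freedom. Gene levels were compared as RPKM on merged exons. Alternatives were DESeq2 1.42.0, RLE factors, library totals, other filters, a replicate block, neural and vascular marker scores, and each mouse left out. The scores were the mean log2 CPM of the tested neuron and glia markers, and of the tested endothelial, mural and fibroblast markers. They include *Slc1a3* and *Pdgfrb*, which were called lower in mutants, so these fits also adjust for genes that differed between the groups. All replicate pairs differed by more than sampling noise. The script was tested on simulated data. Named genes were the members, the pathway list, the targeted, sex-linked and marker genes, and, for each called member, the 3 genes nearest in profile whose mean log2 CPM was 3 or more. The members and lists were chosen with earlier results of these data known. Floors of 3 counts cover counting error only.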

Additional observations from a re-analysis of the deposited data

Results flagged for a closer look

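In 72 groups of 4 libraries, 1 per gene and genotype among members, pathway genes and the targeted genes, 7 held a library far from the other 3 by Dixon's criterion. Chance alone meets it in about 1 of 20 groups of normally distributed values. That rate does not hold near 0 counts, where any single value beside 3 zeros meets the criterion by construction. Among the members the flagged groups were all of genes near the detection limit. *Lrrc32* was at 0.703 CPM in control 2 and at 0 in the other controls. *Ltbp1* was at 2.95 CPM in control 1, against 0 to 0.234 CPM in the others, and at 1.04 CPM in mutant 1, against 0 to 0.110 CPM. *Ltbp4* was at 1.23 CPM in mutant 2, against 0 to 0.0836 CPM. Among pathway genes, *Ltbp2* was at 0.0280 CPM in control 3 and 0 elsewhere in controls, *Itgb6* was at 3.74 CPM in mutant 2 against 0 to 0.519 CPM, and *Bgn* was at 25.3 CPM in control 1 against 3.28 to 4.20 CPM.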

How the results depend on the processing

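The count of members called lower was 1 in all 16 alternatives, and *Itgb5* was that gene in each. The count of members called higher was 0, and 1 under DESeq2 and under at least 10 counts in all 8 libraries; without each mouse in turn it ranged from 0 to 1. Pathway genes called higher numbered 1, against 2 under DESeq2 and 0 with the replicate block (*Tgfb3* adjusted p = 0.0676), and from 1 to 2 without each mouse. The gene added under DESeq2 was one that the main filter left out, and the gene added without control 3 was *Mmp14* (adjusted p = 0.0394, edgeR's test). Pathway genes called lower numbered 6, and 4 to 7 in the alternatives. Signs of genes without a call turned in some fits. With the vascular score the log2 fold change was -0.011 for *Nrros*, -0.44 for *Itgb6* and 0.15 for *Dcn*; with the neural score it was -1.35 for *Itgb6*; with the replicate block it was -1.97 for *Itgb6* and 0.14 for *Dcn*; with library totals it was 0.019 for *Tgfbr3*. Leaving out 1 mouse in turn gave -0.044 to 0.28 for *Nrros*, -0.33 to 0.062 for *Ltbp3*, -2.15 to 0.94 for *Itgb6*, -1.18 to 1.16 for *Dcn*, -0.37 to 0.15 for *Tgfbr3* and -0.23 to 0.020 for *Acvrl1*. The cause was not tested. *Dcn* is itself among the fibroblast markers of the vascular score, so the fit with that score cannot judge the change of *Dcn*.

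Over all genes, 2485 were called (35.3% higher), against 4738 with DESeq2 (43.9% higher) and 1449 with the vascular score; without 1 mouse the count fell as low as 1567 (control 3) and 1572 (control 2). Library totals gave 44.2% higher, with the median of all genes moved by 0.12 on the log2 scale. Same-numbered libraries correlated by 0.166, 0.0183, 0.144 and 0.114 in their deviations from the group means. As 1 pair was under 0.1 and the labels do not say what a number marks, the numbers were not taken to pair the mice, although 6 of 8 libraries correlated best with their own number, a hint of pairing from the data. With the replicate block *Furin* lost its call (adjusted p = 0.0576), as *Tgfb3* did, and *Tgfb1* (0.0408) and *Emilin1* (0.0409) were called lower. In all, 2383 genes were called with it, 2001 of them also called without it.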
